A study of Mus musculus with 9 samples.

Results

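The 43 genes described here are type I interferon-stimulated genes, a list given by name, of which 39 were measured among 22180 genes on the arrays. Each gene was read from its probe set with a single gene symbol, taking the brightest on average over the 9 arrays where there were several. Oas1a, Dtx3l and Ifi27l2a had only probe sets that carry several symbols, Ifi44 had none that was named here, and these 4 genes were not analysed. The study sorted long-term haematopoietic stem cells (LT-HSC) from the bone marrow of C57BL/6 mice by the gate Lin-Sca-1+c-kit+, CD34- and CD135-, and hybridised RNA from each of 9 biological replicates to a mouse gene array. The 3 groups of 3 replicates were control mice (WT), mice with MxCre and 1 Jak2VF allele (MxCre Jak2VF/+, here Jak2VF), and mice with MxCre, Jak2VF/+ and loss of both Ezh2 alleles (MxCre Jak2VF/+ EZH2-/-, here Jak2VF_Ezh2KO). Mice of all 3 groups were given pI-pC, 5 doses of 300 µg each, when 4 weeks old, and marrow was taken 12 weeks after the injections. Values are log2 signals as deposited, so a difference of 1 is a doubling. A level on this scale belongs to 1 probe set, and levels of different genes are not compared.

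Type I interferons bind the receptor Ifnar1 and Ifnar2, whose kinases Jak1 and Tyk2 phosphorylate Stat2. Stat2 works with Irf9 in the complex ISGF3, which binds the interferon-stimulated response element (ISRE) in the promoters of the genes listed here, and the products of these genes block viral replication, sense foreign RNA or DNA, and amplify or end the response. In blood-forming tissue, interferon drives dormant stem cells into cycle. The pathway also enters this design through its reagents. pI-pC is a double-stranded RNA analog that induces interferon, and MxCre places Cre recombinase under the promoter of Mx1, itself a listed gene. Whether the WT mice carried MxCre is not given in the labels. Jak2VF is a constitutively active form of the kinase Jak2, and Ezh2 is the methyltransferase of Polycomb repressive complex 2, which silences genes through histone H3 methylation.

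The ISRE is printed here for the measured genes whose promoters hold it, since it is the sequence through which the list is known to be controlled. RefSeq promoter sequences (GRCm38.p6) were matched by gene ID for 31 of the 43 genes, 28 of them measured. In the 250 bases before the gene start, the letters GAAANNGAAA were searched on both strands. They were found in 10 of the 31 genes (32.3%), against 936 of 27025 genes with a promoter sequence (3.46%) and 2.98% of all 32851 promoter windows of that length. Windows for the 9 measured genes follow 5′ to 3′ on the strand of the gene, with every copy in capitals and up to 8 bases on either side. TTTCNNTTTC is the same motif on the opposite strand, and copies that overlap form one run of capitals.
Ifit1, chr19:34640777-34640821, plus strand: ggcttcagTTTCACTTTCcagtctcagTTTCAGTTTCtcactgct
Ifit3, chr19:34583365-34583424, plus strand: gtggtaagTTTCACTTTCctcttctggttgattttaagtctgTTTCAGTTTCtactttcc
Isg15, chr4:156200867-156200904, minus strand: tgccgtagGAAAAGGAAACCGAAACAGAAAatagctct
Bst2, chr8:71537579-71537610, minus strand: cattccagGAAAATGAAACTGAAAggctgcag
Oas1g, chr5:120887614-120887639, minus strand: cttctcggGAAATGGAAACTGAAAat
Oas3, chr5:120777717-120777742, minus strand: agggaggaGAAAACGAAAgtgaaggg
Rsad2, chr12:26456555-26456580, minus strand: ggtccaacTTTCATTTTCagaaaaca
Stat2, chr10:128270268-128270293, plus strand: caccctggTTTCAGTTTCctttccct
Trim30a, chr7:104465212-104465237, minus strand: ttctttagTTTCTTTTTCtcagttcc
Trim30a has a second promoter entry with no match. The copies lay within the 222 bases before the start in all 9 genes, and those of Oas1g ended 3 bases before it. A match describes these letters only and does not show binding.

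The 250 bases before the start are printed whole for the 2 genes with the smallest unadjusted p between Jak2VF_Ezh2KO and Jak2VF, 1 of which, Phf11d, read near background. Ifit1, an RNA-binding protein that blocks translation of viral RNA, has 2 copies of the motif, and Phf11d, a nuclear PHD-finger protein, has no match in this window.
Ifit1, chr19:34640639-34640888, plus strand: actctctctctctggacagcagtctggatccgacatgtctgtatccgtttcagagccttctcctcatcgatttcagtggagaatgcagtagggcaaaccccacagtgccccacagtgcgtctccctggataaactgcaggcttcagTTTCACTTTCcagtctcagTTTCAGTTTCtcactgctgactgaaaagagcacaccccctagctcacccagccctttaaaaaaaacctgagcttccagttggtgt
Phf11d, chr14:59365491-59365740, minus strand: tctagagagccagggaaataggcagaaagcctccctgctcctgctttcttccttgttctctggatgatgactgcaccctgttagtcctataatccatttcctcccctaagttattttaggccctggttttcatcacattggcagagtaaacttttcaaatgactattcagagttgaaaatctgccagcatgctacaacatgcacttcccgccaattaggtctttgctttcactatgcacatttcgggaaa
The 9 measured genes with a match and the 19 without one were set side by side as a description. Between Jak2VF_Ezh2KO and WT the difference was positive in 9 of 9 genes with a match, with a median of 0.53 (range 0.10 to 1.26). It was positive in 15 of the 19 without, with a median of 0.15 (range -0.19 to 1.44). Between Jak2VF_Ezh2KO and Jak2VF the genes with a match had a median of 0.35 and were positive in 9 of 9, against a median of 0.07 and 12 of 19 for those without. Between Jak2VF and WT the medians were 0.24 and 0.15, with 7 of 9 and 15 of 19 positive, so the shares were alike. The WT mean was under the background limit, defined below, for Isg15, Oas1g, Oas3 and Rsad2 with a match. It was also under it for Phf11d and Oasl1 without one.

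Over all probe sets, array medians ran from 5.51 to 5.67, and the correlation between any 2 arrays was 0.898 to 0.968. Of 10 stem cell markers, 8 were measured, and Fgd5 lay near background, which was set at the 95th percentile (6.10) of 1405 olfactory, vomeronasal and trace amine receptor genes. Cd34 and Flt3, whose products the sort gate excludes, were not near background. Ezh2 averaged 8.66 ± 0.17 in WT, 8.91 ± 0.16 in Jak2VF and 8.32 ± 0.21 in Jak2VF_Ezh2KO (SD, n = 3 each), and whether its probe set lies in the deleted part is not given. Jak2 averaged 8.03 ± 0.11, 8.29 ± 0.21 and 7.83 ± 0.15 in the same order. Y-linked genes averaged 6.66 and 6.81 in Jak2VF_Ezh2KO replicates 1 and 2, and 3.64 to 4.08 on the other arrays, so these 2 replicates alone were male by signal. Of the measured interferon-stimulated genes, 35 lay above background, and Oas3, Mx1, Mx2 and Phf11d lay near it, by the mean over all 9 arrays. The WT mean alone was also under the limit for Isg15, Oas1g, Oas2, Oasl1, Rsad2 and Dhx58, as was the Jak2VF mean for Isg15, so these genes passed through their higher groups. For Ifit2 the Jak2VF_Ezh2KO mean (6.094) was just under the limit (6.098). Differences from a mean under the limit start at the level of these receptor genes, and no fold is given for them.

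Across the 3 groups the measured genes lay lowest in WT and highest in Jak2VF_Ezh2KO more often than in any other order, but no single gene passed an adjusted p of 0.05 in any comparison. Group means ran WT, Jak2VF, Jak2VF_Ezh2KO from low to high in 21 of 39 genes (53.8%), against 17.4% of all genes. Another 9 genes (23.1%, against 17.1%) lay lowest in WT and highest in Jak2VF, among them Parp9, Ly6e and Dhx58. Herc6, Ifit1, Ifit3 and Xaf1 were lowest in Jak2VF and highest in Jak2VF_Ezh2KO, a pattern of 10.3% of the list and 12.0% of all genes. Ifih1 and Mx2 were lowest in Jak2VF and highest in WT, Ifit2 and Sp100 (by its brightest probe set) were lowest in Jak2VF_Ezh2KO and highest in Jak2VF, and Adar was lowest in Jak2VF_Ezh2KO and highest in WT.

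**Figure D1:**
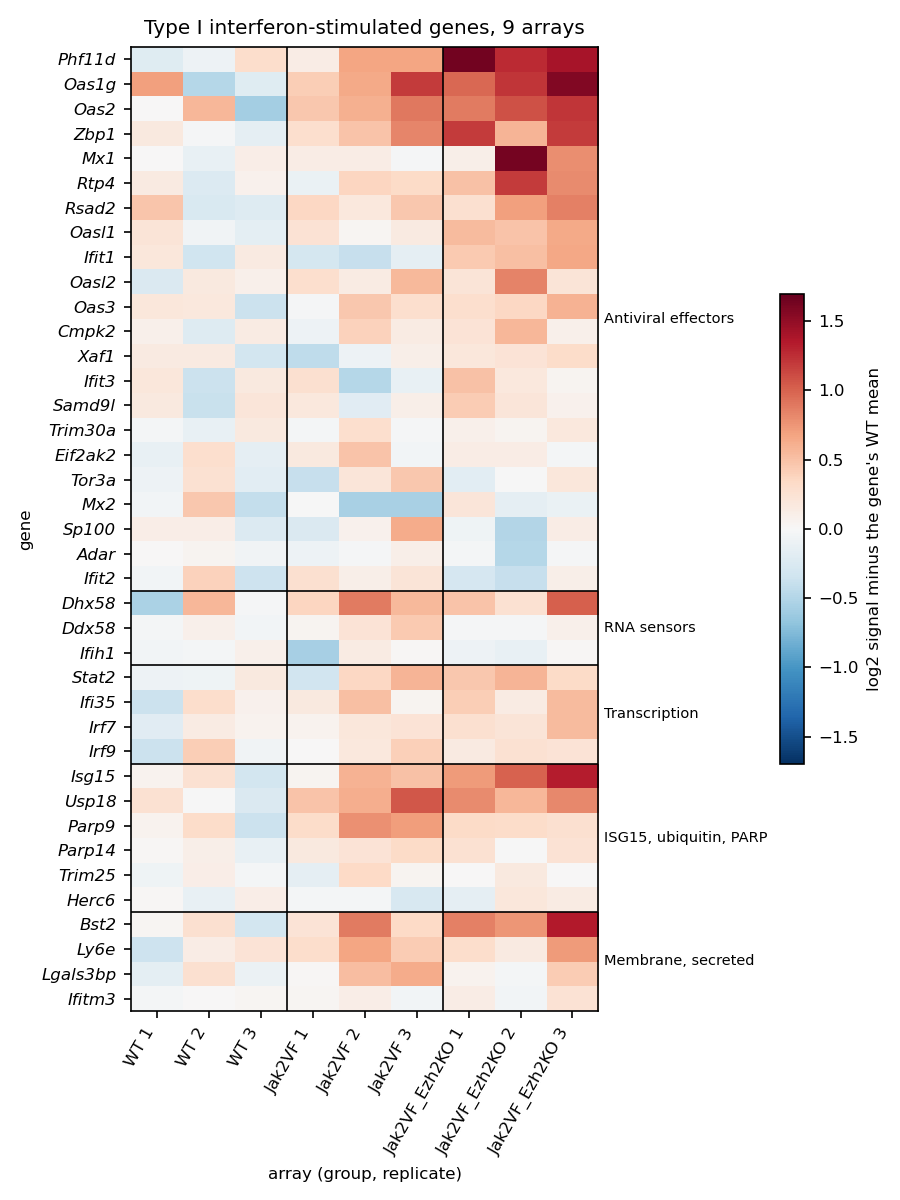
Log2 signal of the 39 measured interferon-stimulated genes on each of 9 arrays, as the difference from the mean of the 3 WT arrays for that gene, with genes grouped by role and arrays by group and replicate. Red is above and blue below the WT mean, and the 21 genes whose group means run WT, Jak2VF, Jak2VF_Ezh2KO from low to high are redder in each group to the right.

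The median over the 39 genes of the difference from the WT mean was 0.01, 0.11 and -0.06 on the 3 WT arrays, 0.06, 0.23 and 0.32 on the Jak2VF arrays and 0.27, 0.24 and 0.32 on the Jak2VF_Ezh2KO arrays. Jak2VF replicate 1 lay among the WT arrays, and Jak2VF replicates 2 and 3 lay at the level of the Jak2VF_Ezh2KO arrays. The same median over the 9275 genes above background was -0.09, 0.14 and -0.03 for WT, 0.00, 0.25 and 0.09 for Jak2VF and 0.07, 0.01 and 0.10 for Jak2VF_Ezh2KO. On Jak2VF replicate 2 the listed genes therefore stood no higher than bright genes in general, whereas they stood higher on Jak2VF replicate 3 and on each Jak2VF_Ezh2KO array. Jak2VF_Ezh2KO replicate 3 held the highest value of 14 of the 39 genes, and WT replicate 3 the lowest value of 11. These are bulk samples, in which more cells that express a gene and more RNA per cell cannot be told apart.

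**Figure D2:**
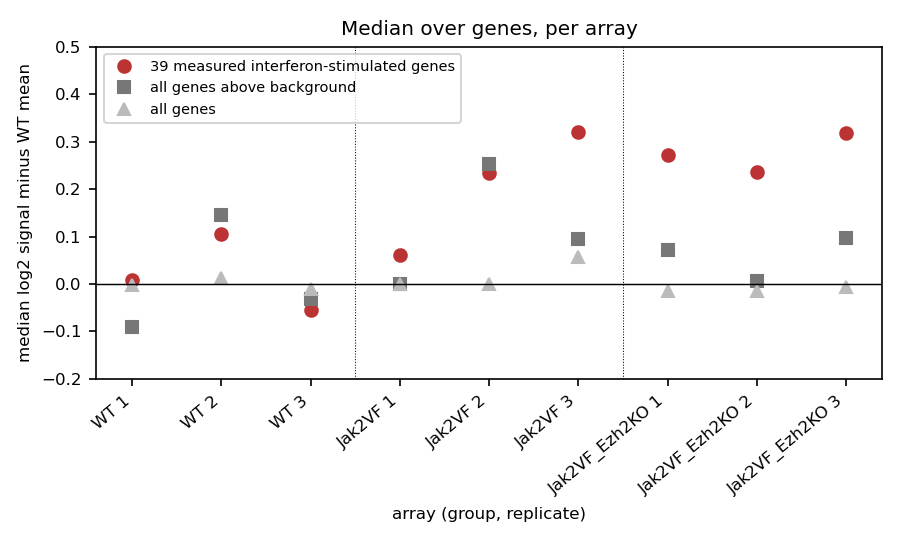
Median log2 signal minus the WT mean on each array, over the 39 measured interferon-stimulated genes (circles), all genes above background (squares) and all genes (triangles). The circles lie between 0.24 and 0.32 on the Jak2VF_Ezh2KO arrays and between 0.06 and 0.32 on the Jak2VF arrays.

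The antiviral effectors form the largest group, with 22 measured genes. Phf11d read 4.45, 4.57 and 4.95 on the WT arrays, 4.79, 5.33 and 5.32 on the Jak2VF arrays and 6.30, 5.93 and 6.06 on the Jak2VF_Ezh2KO arrays. All Jak2VF_Ezh2KO arrays were above all others, and Jak2VF overlapped WT. The Jak2VF_Ezh2KO mean was 1.44 above WT (SE 0.20, limma adjusted p = 0.0735) and 0.95 above Jak2VF (SE 0.20, adjusted p = 0.255). Its mean lay near background, a level at which olfactory receptor genes also read. The Jak2VF_Ezh2KO against WT difference passed the threshold under 3 of the 19 alternatives that gave Phf11d a value, and not under the other 16. The limma adjusted p was 0.0411 with an intensity trend and robust variance, 0.0420 with array weights and 0.0477 without Jak2VF replicate 1. That array is outside this comparison and enters only the shared estimate of the spread.

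The Ifit genes encode proteins that bind viral RNA, and lie next to one another on chromosome 19 in the order Ifit2, Ifit3, Ifit1bl1, Ifit3b, Ifit1bl2, Ifit1. Ifit1 read 6.86, 6.33 and 6.82 on the WT arrays, 6.37, 6.28 and 6.52 on the Jak2VF arrays and 7.11, 7.18 and 7.32 on the Jak2VF_Ezh2KO arrays. It was highest on the 3 Jak2VF_Ezh2KO arrays and its Jak2VF values overlapped WT only through WT replicate 2. Jak2VF_Ezh2KO lay 0.82 above Jak2VF (SE 0.16, 1.76-fold, limma adjusted p = 0.253) and 0.53 above WT (SE 0.16), while Jak2VF minus WT was -0.28 (SE 0.16; -0.19 without WT replicate 1 and -0.45 without WT replicate 2). Ifit3 read 7.40, 6.85 and 7.38 on the WT arrays, 7.48, 6.73 and 7.09 on the Jak2VF arrays and 7.71, 7.39 and 7.25 on the Jak2VF_Ezh2KO arrays, and all 3 groups overlapped. Ifit2 read 6.24, 6.68 and 5.94 on the WT arrays, 6.56, 6.39 and 6.51 on the Jak2VF arrays and 6.00, 5.90 and 6.39 on the Jak2VF_Ezh2KO arrays, with Jak2VF_Ezh2KO the lowest group by its mean and overlapping both others. That mean was just under the background limit. Against Jak2VF the Jak2VF_Ezh2KO difference was thus 0.82 for Ifit1, 0.35 for Ifit3 (SE 0.23) and -0.39 for Ifit2 (SE 0.20). The Ifit3 difference was 0.54 when Jak2VF replicate 1 was left out, 0.17 when replicate 2 of that group was, and 0.22 when replicate 1 of Jak2VF_Ezh2KO was. With a sex term in the fit, set by Y-linked signal, it was 0.15 for Ifit3 and -0.10 for Ifit2. These values rest on Jak2VF_Ezh2KO replicate 3 alone, the only array of its group without Y-linked signal. Ifit2 and Ifit3 were singled out here after their values were seen, as neighbours of Ifit1. Neighbours in this cluster are similar in sequence, and the mapping of probes to single copies was not checked.

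The 2′-5′ oligoadenylate synthetases make the second messenger that activates RNase L, and Oas1g, Oas2, Oas3, Oasl1 and Oasl2 of the list belong to this family. Oas1g read 6.44, 5.26 and 5.54 on the WT arrays, 6.16, 6.40 and 6.93 on the Jak2VF arrays and 6.73, 6.96 and 7.33 on the Jak2VF_Ezh2KO arrays. All Jak2VF_Ezh2KO values were above all WT values, and WT replicate 1 stood well above the other WT arrays. Jak2VF_Ezh2KO lay 1.26 above WT (SE 0.31) and Jak2VF 0.75 above WT (SE 0.31), with limma adjusted p-values of 0.386 and 0.924. Oas2 read 5.99, 6.55 and 5.41 on the WT arrays, 6.44, 6.59 and 6.88 on the Jak2VF arrays and 6.87, 7.06 and 7.19 on the Jak2VF_Ezh2KO arrays. Its Jak2VF_Ezh2KO arrays were above all WT arrays and overlapped Jak2VF, with 1.06 over WT (SE 0.26), 0.65 for Jak2VF over WT (SE 0.26; 0.36 without WT replicate 3) and 0.41 for Jak2VF_Ezh2KO over Jak2VF (SE 0.26).

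Oasl1, which restrains translation of Irf7, read 6.31, 6.03 and 5.92 on the WT arrays, 6.33, 6.12 and 6.24 on the Jak2VF arrays and 6.63, 6.57 and 6.73 on the Jak2VF_Ezh2KO arrays. Its 3 Jak2VF_Ezh2KO arrays were above all 6 others, by 0.41 over Jak2VF (SE 0.14) and 0.55 over WT (SE 0.14). Oas3 averaged 5.78 ± 0.32, 6.03 ± 0.24 and 6.20 ± 0.16 in WT, Jak2VF and Jak2VF_Ezh2KO, and Oasl2 6.98 ± 0.22, 7.30 ± 0.21 and 7.41 ± 0.36 (SD, n = 3 each). Both followed the same order of means, and in both all Jak2VF_Ezh2KO arrays lay above all WT arrays. The Oas1 genes are near-identical copies side by side on chromosome 5, so signal of Oas1g may include its neighbours.

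Zbp1, a sensor of Z-form nucleic acid that starts cell death, read 6.67, 6.48 and 6.36 on the WT arrays, 6.78, 6.99 and 7.34 on the Jak2VF arrays and 7.69, 7.08 and 7.69 on the Jak2VF_Ezh2KO arrays. The Jak2VF and Jak2VF_Ezh2KO arrays were all above the WT arrays. The means were 0.53 (SE 0.20) and 0.99 (SE 0.20) above WT, with limma adjusted p-values of 0.924 and 0.253, and Jak2VF_Ezh2KO lay 0.45 above Jak2VF (SE 0.20) with overlap. Rtp4, a receptor-transporting protein with antiviral activity, read 7.74, 7.36 and 7.66 on the WT arrays, 7.47, 7.95 and 7.91 on the Jak2VF arrays and 8.08, 8.77 and 8.39 on the Jak2VF_Ezh2KO arrays. Jak2VF_Ezh2KO was above all other arrays, by 0.64 over Jak2VF (SE 0.21) and 0.83 over WT (SE 0.21).

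Rsad2 (viperin), which makes a chain-terminating nucleotide, read 6.28, 5.54 and 5.58 on the WT arrays, 6.16, 5.98 and 6.26 on the Jak2VF arrays and 6.07, 6.49 and 6.65 on the Jak2VF_Ezh2KO arrays. WT replicate 1 lay among the values of the mutant groups, so that all groups overlapped, and Jak2VF_Ezh2KO minus WT was 0.61 (SE 0.22). Mx1, a dynamin-like GTPase against orthomyxoviruses and the source of the Cre promoter, read 3.84, 3.71 and 3.94 on the WT arrays, 3.96, 3.96 and 3.81 on the Jak2VF arrays and 3.93, 5.46 and 4.62 on the Jak2VF_Ezh2KO arrays. Only Jak2VF_Ezh2KO replicates 2 and 3 stood above the other arrays, and its mean lay below the background limit. The Jak2VF_Ezh2KO difference was 0.84 from WT (SE 0.31) and 0.77 from Jak2VF (SE 0.31), or 0.45 and 0.37 without Jak2VF_Ezh2KO replicate 2. Mx2 lay near background with a Jak2VF_Ezh2KO minus WT difference of -0.02.

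Xaf1, a pro-apoptotic protein, read 8.41, 8.41 and 7.95 on the WT arrays, 7.83, 8.17 and 8.35 on the Jak2VF arrays and 8.44, 8.49 and 8.57 on the Jak2VF_Ezh2KO arrays. Its Jak2VF_Ezh2KO arrays lay above all others, by 0.38 over Jak2VF (SE 0.18; 0.24 without Jak2VF replicate 1). The remaining effectors were Eif2ak2 (PKR, a kinase that stops translation), Samd9l (an antiproliferative antiviral factor), Tor3a, Adar (an RNA-editing deaminase), Trim30a, Sp100 and Cmpk2 (a mitochondrial nucleotide kinase), and in each of them the 3 groups overlapped. Their Jak2VF_Ezh2KO minus WT differences ran from -0.18 for Adar to 0.29 for Cmpk2. Sp100, a nuclear body protein, had 4 probe sets that disagreed in sign, from -0.15 to 0.48 for Jak2VF_Ezh2KO minus WT, so it has no settled direction. Over the 22 effectors the median difference was 0.15 for Jak2VF minus WT, 0.31 for Jak2VF_Ezh2KO minus Jak2VF and 0.35 for Jak2VF_Ezh2KO minus WT.

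**Figure D3:**
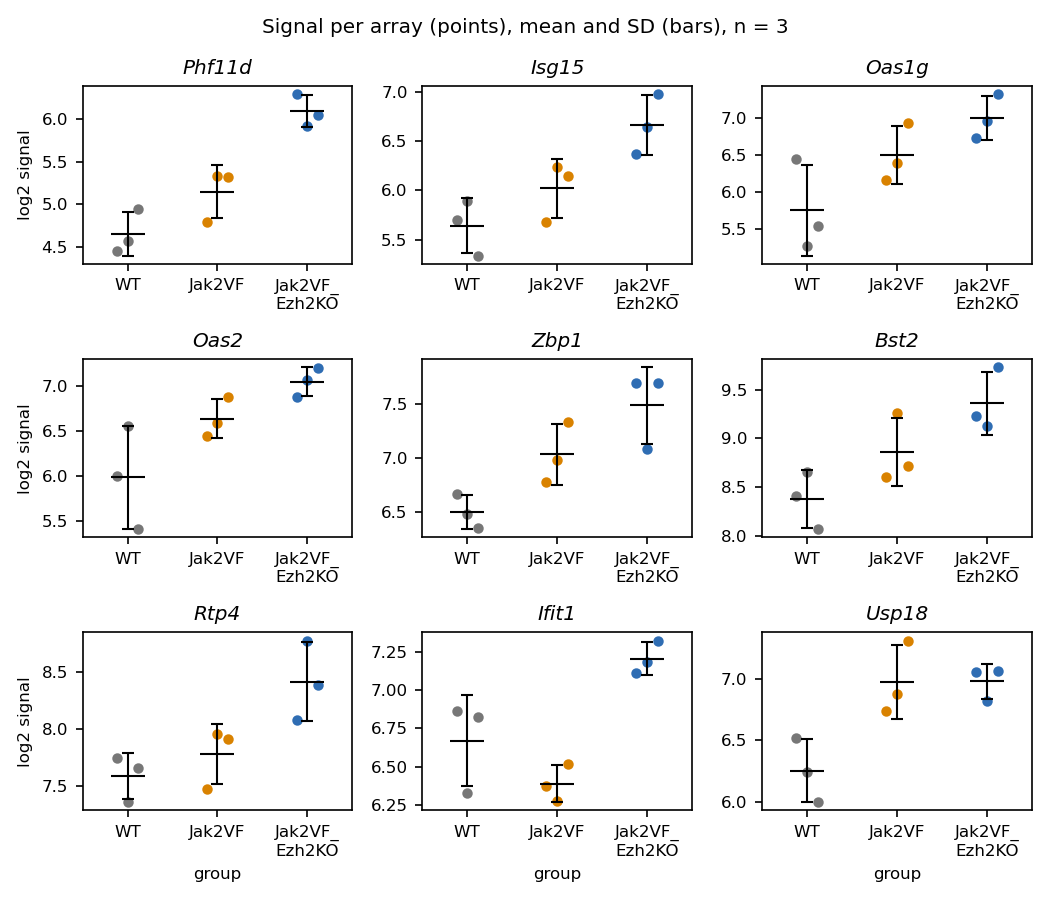
Log2 signal of named interferon-stimulated genes on each array, with points for the 3 replicates of each group and bars for the mean and SD. Phf11d, Isg15 and Rtp4 have all Jak2VF_Ezh2KO points above all others, and Usp18 has Jak2VF and Jak2VF_Ezh2KO points together above WT.

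Isg15, the ubiquitin-like modifier that interferon attaches to proteins, read 5.70, 5.90 and 5.34 on the WT arrays, 5.68, 6.24 and 6.14 on the Jak2VF arrays and 6.37, 6.64 and 6.98 on the Jak2VF_Ezh2KO arrays. All Jak2VF_Ezh2KO arrays lay above all others, and Jak2VF overlapped WT. The mean was 1.02 above WT (SE 0.22, limma adjusted p = 0.253) and 0.64 above Jak2VF (SE 0.22, adjusted p = 0.563). Usp18, which removes Isg15 from proteins and blocks signalling at Ifnar2, read 6.52, 6.24 and 6.00 on the WT arrays, 6.74, 6.88 and 7.32 on the Jak2VF arrays and 7.06, 6.82 and 7.07 on the Jak2VF_Ezh2KO arrays. Both mutant groups were above every WT array, and they overlapped each other. Jak2VF lay 0.72 above WT (SE 0.19, adjusted p = 0.924) and Jak2VF_Ezh2KO 0.73 (SE 0.19, adjusted p = 0.400), the smallest unadjusted p of the list for Jak2VF against WT. The 95% interval for Jak2VF_Ezh2KO minus Jak2VF was -0.41 to 0.42.

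Parp9, a mono-ADP-ribosyltransferase that works with the ubiquitin ligase Dtx3l, read 6.80, 7.06 and 6.37 on the WT arrays, 7.06, 7.52 and 7.46 on the Jak2VF arrays and 7.07, 7.06 and 7.01 on the Jak2VF_Ezh2KO arrays. Its values were highest on Jak2VF replicates 2 and 3, with Jak2VF replicate 1 level with WT replicate 2. Jak2VF lay 0.60 above WT (SE 0.19, limma adjusted p = 0.924). Parp14, Herc6 (the mouse ligase for Isg15) and Trim25 (a ligase that acts on the RNA sensor Ddx58) differed by 0.17, 0.06 and 0.06 between Jak2VF_Ezh2KO and WT, with overlap in each. Over the 6 modifier genes the median was 0.31 for Jak2VF minus WT, -0.01 for Jak2VF_Ezh2KO minus Jak2VF and 0.23 for Jak2VF_Ezh2KO minus WT.

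Of the transcription factors and their partners, Irf7, the amplifier of interferon-alpha genes, read 6.27, 6.60 and 6.52 on the WT arrays, 6.52, 6.65 and 6.69 on the Jak2VF arrays and 6.73, 6.69 and 6.996 on the Jak2VF_Ezh2KO arrays. Jak2VF_Ezh2KO lay above all WT arrays, and overlapped Jak2VF. The difference from WT was 0.34 (SE 0.14, limma adjusted p = 0.564). With a sex term it was 0.53, a value that rests on Jak2VF_Ezh2KO replicate 3 alone. Stat2, a subunit of ISGF3, read 6.45, 6.46 and 6.70 on the WT arrays, 6.21, 6.89 and 7.11 on the Jak2VF arrays and 6.995, 7.11 and 6.87 on the Jak2VF_Ezh2KO arrays. Its Jak2VF_Ezh2KO arrays were likewise above WT, by 0.46 (SE 0.21), with Jak2VF spanning both groups. Irf9, the DNA-binding subunit, differed by 0.21 and Ifi35 by 0.37 with overlap. All 4 differences were positive in each of the 3 comparisons, with medians of 0.20, 0.15 and 0.35 for Jak2VF minus WT, Jak2VF_Ezh2KO minus Jak2VF and Jak2VF_Ezh2KO minus WT.

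The cytosolic RNA sensors gave smaller or less even differences. Dhx58 (LGP2), a regulator of the other RNA sensors, read 5.45, 6.56 and 5.97 on the WT arrays, 6.36, 6.88 and 6.55 on the Jak2VF arrays and 6.48, 6.25 and 7.02 on the Jak2VF_Ezh2KO arrays. WT replicate 1 stood far below the rest, and Jak2VF minus WT was 0.60 (SE 0.29), or 0.33 without that array. Ddx58 (RIG-I) read 7.06, 7.18 and 7.05 on the WT arrays, 7.15, 7.32 and 7.54 on the Jak2VF arrays and 7.08, 7.08 and 7.18 on the Jak2VF_Ezh2KO arrays, and Ifih1 (MDA5), a sensor of long double-stranded RNA such as pI-pC, read 7.57, 7.57 and 7.69 on the WT arrays, 7.04, 7.75 and 7.63 on the Jak2VF arrays and 7.52, 7.48 and 7.63 on the Jak2VF_Ezh2KO arrays. Neither separated the groups, and their Jak2VF_Ezh2KO minus WT differences were 0.02 and -0.07.

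Of the membrane and secreted products, Bst2 (tetherin), which holds budding virus at the cell surface, read 8.41, 8.65 and 8.07 on the WT arrays, 8.61, 9.26 and 8.72 on the Jak2VF arrays and 9.23, 9.12 and 9.73 on the Jak2VF_Ezh2KO arrays. All Jak2VF_Ezh2KO values were above all WT values, and Jak2VF replicate 2 lay above Jak2VF_Ezh2KO replicates 1 and 2. Jak2VF_Ezh2KO lay 0.98 above WT (SE 0.23, 1.98-fold, limma adjusted p = 0.336) and Jak2VF 0.48 (SE 0.23; 0.28 without Jak2VF replicate 2). Ly6e, a surface protein of the Ly6 family that includes Sca-1, read 10.81, 11.29 and 11.39 on the WT arrays, 11.46, 11.84 and 11.60 on the Jak2VF arrays and 11.46, 11.31 and 11.88 on the Jak2VF_Ezh2KO arrays. Jak2VF lay above all WT arrays by 0.47 (SE 0.20; 0.29 without WT replicate 1), and Jak2VF_Ezh2KO overlapped both groups. Lgals3bp and Ifitm3, which blocks entry of virus through endosomes, differed by 0.15 and 0.11 between Jak2VF_Ezh2KO and WT, with overlap.

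The Jak2VF against WT comparison sets mice with MxCre and Jak2VF beside controls for which MxCre is not given, so whether these groups also differed in the Cre transgene is not known. The difference was positive in 32 of 39, with a median of 0.20, against 55.8% of all genes positive and a median of 0.03. Of the 35 above background by the overall mean, 29 were positive, with a median of 0.20, against 71.8% and 0.11 for the 9275 such genes. None of the 39 passed an adjusted p of 0.05 (limma with Benjamini-Hochberg adjustment over all genes), and 0% of all genes did, the smallest adjusted p of the list being 0.924. At an unadjusted p under 0.05, 7 of 39 (17.9%) were higher in Jak2VF and 0 lower, against 2.85% and 1.81% of all genes. Above background, 6 of 35 were higher (17.1%, against 5.20%). Among these, Oas1g and Oas2 had a WT mean under the background limit and passed through their higher groups. The filtered count is therefore not independent of the difference. The 7 were Usp18, Parp9, Zbp1, Oas2, Phf11d (0.49), Oas1g and Ly6e. The 3 Jak2VF arrays lay wholly above the WT arrays in 4 of 39 genes (10.3%), against 3.54% of all genes. Above background, it was 4 of 35 (11.4%), against 5.67%. The count of 7 was 12 without Jak2VF replicate 1, 3 without Jak2VF replicate 2, 2 without Jak2VF replicate 3 and 4 without WT replicate 3.

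The Jak2VF_Ezh2KO against Jak2VF comparison differs in Ezh2 and also in sex. Jak2VF_Ezh2KO replicates 1 and 2 were male by signal and no Jak2VF array was, so loss of Ezh2 and sex cannot be told apart on those arrays. The difference was positive in 27 of 39 genes, with a median of 0.14, whereas 41.8% of all genes were positive with a median of -0.04. Above background, 23 of 35 were positive with a median of 0.11, against 41.3% and -0.05. No listed gene passed at an adjusted p of 0.05, against 0.0451% of all genes, and the smallest adjusted p was 0.253, for Ifit1. At an unadjusted p under 0.05, 6 of 39 (15.4%) were higher and 0 lower, against 2.91% and 3.99% of all genes. Above background, 4 of 35 were higher (11.4%, against 4.19%). Among these, Isg15 had a Jak2VF mean under the background limit and passed through its Jak2VF_Ezh2KO values. The filtered count is therefore not independent of the difference. The 6 were Ifit1, Phf11d, Rtp4, Oasl1, Isg15 and Mx1. All 3 Jak2VF_Ezh2KO arrays lay above all Jak2VF arrays in 6 of 39 (15.4%), against 4.18% of all genes, with Xaf1 in the place of Mx1. Above background, it was 5 of 35 (14.3%), against 5.53%, with the same limit through Isg15. The median was 0.07 without Jak2VF replicate 1 and 0.09 without Jak2VF_Ezh2KO replicate 3, and the count of 6 was 4 without either.

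The Jak2VF_Ezh2KO against WT comparison holds both genetic changes and the same difference in sex. It shares arrays with each of the other comparisons, so the 3 are not independent. The difference was positive in 34 of 39 genes, with a median of 0.30, against 46.5% of all genes and a median of -0.02. Above background, 31 of 35 were positive with a median of 0.29, against 59.2% and 0.05. No listed gene passed at an adjusted p of 0.05, against 0.0225% of all genes, the smallest being 0.0735 for Phf11d. At an unadjusted p under 0.05, 13 of 39 (33.3%) were higher and 0 lower, against 4.54% and 4.06% of all genes. Above background, 11 of 35 were higher (31.4%, against 8.09%). Among these, Isg15, Oas1g, Oas2, Oasl1 and Rsad2 had a WT mean under the background limit and passed through their higher groups. The filtered count is therefore not independent of the difference. The 13 were Phf11d, Zbp1, Isg15, Bst2, Oas2, Oas1g, Oasl1, Rtp4, Usp18, Ifit1, Irf7, Mx1 and Rsad2. All Jak2VF_Ezh2KO arrays lay above all WT arrays in 15 of 39 (38.5%), against 6.28% of all genes. Above background, it was 13 of 35 (37.1%), against 10.6%, with the same limit on the filtered count. Leaving out single arrays gave counts of 11 to 16 and medians of 0.27 to 0.41. Quantile normalization left 28 genes positive between Jak2VF and WT in place of 32, and 30 between Jak2VF_Ezh2KO and WT in place of 34.

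**Figure D4:**
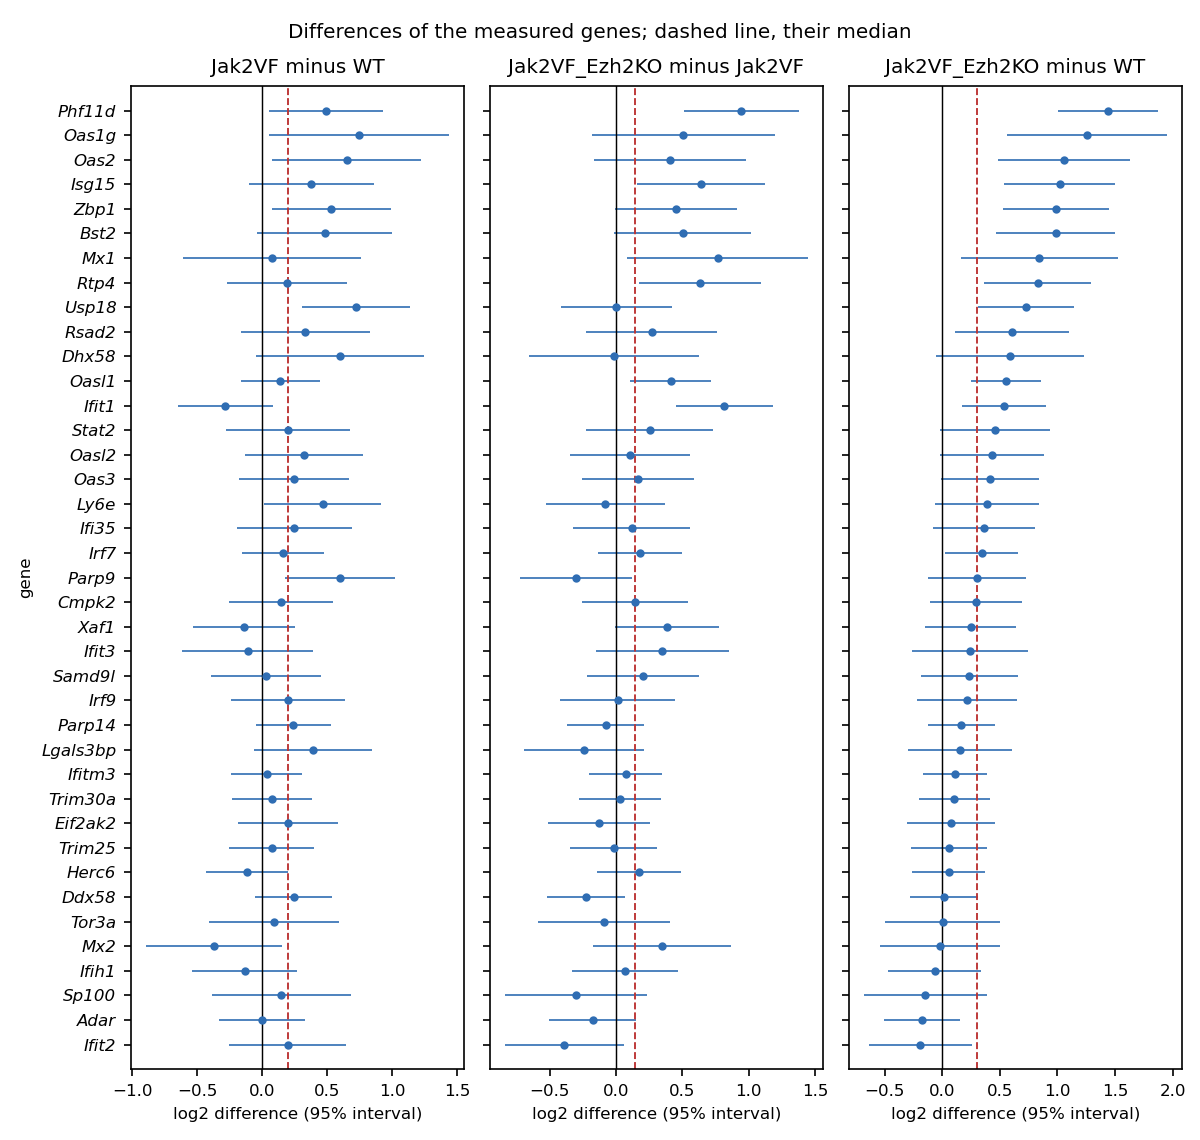
Log2 difference of each of the 39 measured interferon-stimulated genes in the 3 comparisons, with bars for the 95% interval from limma and a dashed line at the median of the 39. Jak2VF_Ezh2KO minus WT is positive in 34 genes and Jak2VF minus WT in 32.

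**Figure D5:**
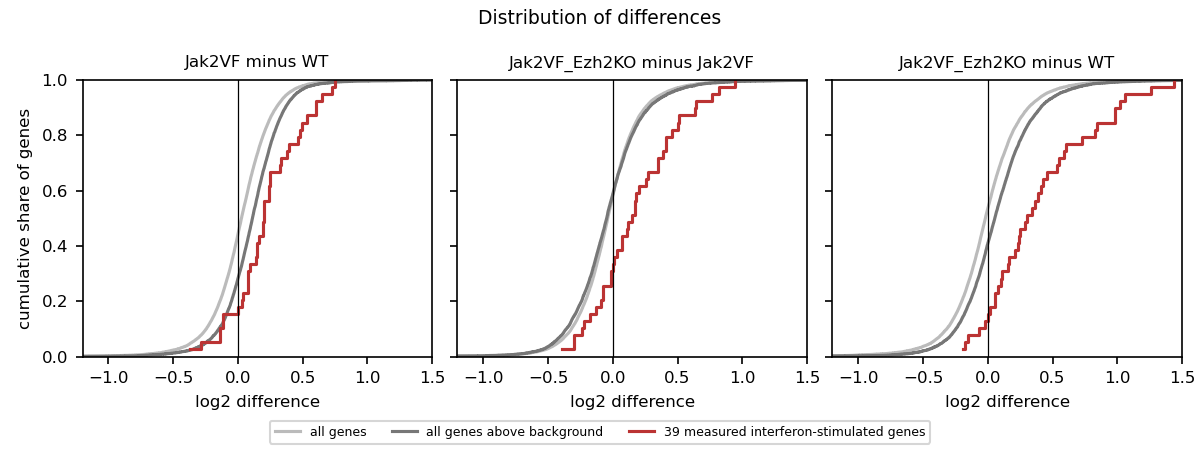
Cumulative share of genes at or below each log2 difference, for the 39 measured interferon-stimulated genes (red, 4 of them near background), all genes (light grey) and the 9275 genes above background (dark grey), in the 3 comparisons. The red curve lies to the right over most of its length, with medians of 0.20, 0.14 and 0.30 against 0.03, -0.04 and -0.02 for all genes.

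The genes upstream of the list were read from a list of their own. In a wider list of the pathway (ligands, receptors and kinases, factors, sensors and adaptors, and inhibitors), 41 of 47 genes were measured, with 24, 11 and 19 positive. Those were 58.5%, 26.8% and 46.3% of the 41, against 55.8%, 41.8% and 46.5% of all genes. The median difference was 0.03 for Jak2VF minus WT, -0.12 for Jak2VF_Ezh2KO minus Jak2VF and -0.02 for Jak2VF_Ezh2KO minus WT. None passed an adjusted p of 0.05. Without the 16 ligands, 12 of them near background, the differences were positive in 21, 7 and 17 of 25, with medians of 0.15, -0.06 and 0.09. Of the 9275 genes above background, 71.8%, 41.3% and 59.2% were positive, with medians of 0.11, -0.05 and 0.05. At an unadjusted p under 0.05, 2, 0 and 1 of 41 were higher (2.85%, 2.91% and 4.54% of all genes) and 1, 3 and 6 lower (1.81%, 3.99% and 4.06% of all genes). Of those lower, 0, 1 and 0 were not ligands. Ifnar1 averaged 7.81 ± 0.23 in WT, 7.96 ± 0.11 in Jak2VF and 7.99 ± 0.19 in Jak2VF_Ezh2KO, and Ifnar2 8.91 ± 0.17, 9.14 ± 0.25 and 9.04 ± 0.16 (SD, n = 3 each). Jak1 averaged 8.93 ± 0.12, 8.96 ± 0.17 and 8.80 ± 0.08, Tyk2 6.56 ± 0.13, 6.74 ± 0.05 and 6.72 ± 0.13, and Irf3, the factor behind the first wave of interferon, 7.63 ± 0.12, 7.79 ± 0.20 and 7.61 ± 0.11. In none of these 5 did a group lie apart from the others.

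Of 16 measured interferon ligands, 12 of them near background, 3 were positive for Jak2VF minus WT and 2 for Jak2VF_Ezh2KO minus WT. The shares over all genes were 55.8% and 46.5%. Genes above background were positive in 71.8% and 59.2%, so genes near background were positive less often than all genes. Ifna9, an interferon-alpha subtype near background, read 5.11, 4.86 and 5.92 on the WT arrays, 5.25, 4.86 and 5.004 on the Jak2VF arrays and 3.87, 4.52 and 4.52 on the Jak2VF_Ezh2KO arrays, so that Jak2VF_Ezh2KO lay below all other arrays, with a difference of -0.99 from WT (SE 0.28). Ifna genes are near-identical copies, and these values cannot be assigned to 1 subtype with certainty. The smallest p-values of the pathway list also fell on Ifna2 (-0.72 for Jak2VF minus WT), Ifnk (-0.96 for Jak2VF_Ezh2KO minus Jak2VF) and Ifne (-0.50 for Jak2VF_Ezh2KO minus WT), all near background. Irf8, a factor of myeloid and dendritic cell development, read 5.89, 6.41 and 5.55 on the WT arrays, 6.69, 6.78 and 6.82 on the Jak2VF arrays and 6.71, 7.10 and 6.97 on the Jak2VF_Ezh2KO arrays. Both mutant groups were above all WT arrays, by 0.81 (SE 0.21; 0.48 as the mean over its probe sets) and 0.98 (SE 0.21, limma adjusted p = 0.253). The WT mean of Irf8 was under the background limit, so both differences start at the level of the receptor genes. Socs3, an inhibitor of Jak signalling, lay 0.29 higher in Jak2VF than in WT (SE 0.12), and Irf2, a repressor of interferon genes, differed by -0.47 between Jak2VF_Ezh2KO and Jak2VF (SE 0.15).

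A further list of interferon-stimulated genes outside the 43 was read in the same way, with 30 of 33 measured. The differences were positive in 21, 17 and 23 of 30 for Jak2VF minus WT, Jak2VF_Ezh2KO minus Jak2VF and Jak2VF_Ezh2KO minus WT, with medians of 0.13, 0.04 and 0.24 (all genes, 55.8%, 41.8% and 46.5% positive). None passed an adjusted p of 0.05. At an unadjusted p under 0.05, 6, 2 and 6 were higher and 0, 3 and 1 lower, beside 2.85%, 2.91% and 4.54% of all genes higher and 1.81%, 3.99% and 4.06% lower. Oas1b, near background, lay 0.60 above WT in Jak2VF (SE 0.16) and 0.63 in Jak2VF_Ezh2KO (SE 0.16). Apobec3, a cytidine deaminase against retroviruses, lay 0.61 and 0.67 above WT, and Gbp3, a guanylate-binding protein, 0.61 above WT in Jak2VF (0.34 without Jak2VF replicate 3). Between Jak2VF_Ezh2KO and Jak2VF, Trim34a (0.68) and Isg20, an exonuclease (0.49), were higher. Lgals9 (-0.59) was lower, and in each of these genes the groups did not overlap. With a sex term, which rests on Jak2VF_Ezh2KO replicate 3 alone, the Isg20 difference was 0.77. Isg20 was also 0.71 above WT in Jak2VF_Ezh2KO.

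Cell type markers differed between the same samples. The 8 stem cell markers averaged 7.49 to 7.50 on the WT arrays, 7.17 to 7.30 on Jak2VF and 7.23 to 7.56 on Jak2VF_Ezh2KO, so Jak2VF lay below WT without overlap, with 6 of 8 markers lower and a median difference of -0.24. Cd34 averaged 10.32 ± 0.22, 10.53 ± 0.15 and 9.98 ± 0.08 in WT, Jak2VF and Jak2VF_Ezh2KO (SD, n = 3 each), and its Jak2VF_Ezh2KO arrays lay below all others, with limma adjusted p-values of 0.413 against Jak2VF and 0.574 against WT. The 8 T and NK cell markers, of which 6 lay near background, averaged 5.82 to 6.08 on the WT arrays, 5.72 to 6.01 on Jak2VF and 6.34 to 6.83 on Jak2VF_Ezh2KO. The 4 mast cell markers, 3 of them near background, averaged 5.20 to 5.27, 5.95 to 6.56 and 6.32 to 6.77. Neutrophil markers reached 7.26 on Jak2VF_Ezh2KO replicate 3, the array with the highest value of 14 listed genes, against 5.39 to 6.06 over the WT and Jak2VF arrays. Plasmacytoid dendritic cell markers, cells known as a source of interferon, averaged 6.16 to 6.48 in WT, 6.07 to 6.28 in Jak2VF and 6.23 to 6.29 in Jak2VF_Ezh2KO. Monocyte and macrophage markers averaged 5.78 to 6.19, 6.18 to 6.57 and 5.57 to 6.20, and B cell markers 5.26 to 5.44, 5.32 to 5.42 and 5.15 to 5.99. Erythroid markers averaged 7.79 to 8.62, 7.51 to 8.72 and 8.38 to 8.74. Their part in the differences of the interferon-stimulated genes was not tested. Without Jak2VF_Ezh2KO replicate 3 the median over the listed genes was 0.32 against WT and 0.09 against Jak2VF, and without both arrays with Y-linked signal, which left 1 Jak2VF_Ezh2KO array, it was also 0.32 against WT and 0.21 against Jak2VF.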

How the data were processed

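Sorted stem cells of 9 mice were measured on Affymetrix mouse gene arrays, 3 per group, grouped by the genotype label. Per the labels' protocols, 10 ng of mRNA went into the synthesis of amplified cDNA, which was labelled with biotin, and the submitters' processing notes name Partek 6.6. The authors deposited log2 values for 41345 probe sets. How they corrected background, normalized and summarised the probes was not given in the sources used here. Probe sets with several symbols (1814) or unnamed here (16010) were left out, and the brightest on average of each gene was kept, giving 22180 genes. The deposited log2 values were fitted without further normalization in limma 3.58.1 (R 4.3.3), over all 9 arrays with 3 contrasts, and p-values were adjusted by Benjamini-Hochberg over all genes. The fit had 6 residual degrees of freedom, and with 3 arrays a group their number limits the precision. The script was tested on simulated data.

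The genes and the further lists were chosen with earlier results of these data known. Named with differences were, per comparison, the 8 listed genes with the smallest unadjusted p and every one under 0.05, and the 3 smallest of each further list. Other genes and comparisons of a named gene were added after their values were seen. Every measured gene could be named with its levels by role. Alternatives were other variance models, normalizations, filters and probe set rules, array weights, a sex term, a replicate block, each pair of groups alone and leaving out each array.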

Additional observations from a re-analysis of the deposited data

How the results depend on the processing

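Over the 20 settings tried, the median over the 39 genes stayed positive in each comparison, at 0.12 to 0.30 for Jak2VF minus WT, 0.07 to 0.21 for Jak2VF_Ezh2KO minus Jak2VF and 0.24 to 0.41 for Jak2VF_Ezh2KO minus WT. No listed gene passed an adjusted p of 0.05 in the first or second of these. In the third, 1 gene (Phf11d, difference 1.44) passed with an intensity trend and robust variance, with array weights and without Jak2VF replicate 1, so that leaving out single arrays gave 0 to 1. A filter on dim genes leaves Phf11d and Mx1 out, so neither has a value there. The count of listed genes higher in Jak2VF than in WT at an unadjusted p under 0.05 was 7, and 2 by ordinary least squares; its recomputation under the alternatives was added after seeing the data. It was 2 to 12 when single arrays were left out. For Ifit2 the Jak2VF_Ezh2KO minus WT difference of -0.19 changed sign to 0.10 with a sex term. It did so too without the 2 Jak2VF_Ezh2KO arrays that carried signal of Y-linked genes (Y-positive arrays). Both settings rest on Jak2VF_Ezh2KO replicate 3 alone. When single arrays were left out, the Ifit2 difference ran from -0.37 to 0.0040. The cause was not tested.

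Counts over all genes were less stable. Between Jak2VF_Ezh2KO and Jak2VF, 10 genes passed, but 0 by ordinary least squares, 0 with the 2 groups alone, 0 with the replicate block, 0 without the Y-positive arrays and 19 among genes above the median signal. Between Jak2VF_Ezh2KO and WT, 5 passed, but 10 with an intensity trend and robust variance, 0 by ordinary least squares, 8 after quantile normalization, 3 after median centring, 0 with the 2 groups alone, 14 with array weights, 0 with the replicate block and 0 without the Y-positive arrays. Leaving out single arrays gave 0 to 17 and 0 to 14. Same-numbered arrays deviated together with r from -0.23 to 0.48. Arrays of different number were not compared in this way, so whether the replicate numbers pair the samples was not settled. With the replicate block the counts of listed genes at an unadjusted p under 0.05 were 7, 6 and 13.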
